A study of Homo sapiens with 4 samples.

Results

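NF-κB is a family of dimeric transcription factors that inhibitor proteins, the IκBs, hold in the cytoplasm of resting cells. Receptors for TNF, for IL-1 and for microbial products recruit adaptors, ubiquitin ligases and kinases, which activate the IκB kinase complex; that complex marks IκB for destruction and frees the dimers. Among the genes the dimers switch on are several of their own brakes, and in myeloid cells also cytokines, adhesion molecules and antioxidant enzymes. The genes followed here are 42 parts of this pathway: ligands, adaptors, kinases, transcription factor subunits, inhibitors and induced genes. Members and roles were chosen with earlier results of these data known, so their shares are descriptive. A gene was found by matching its symbol to the Ensembl identifiers of the deposited tables. Each of the 42 symbols matched exactly 1 of the 41084 identifiers, and all 42 held enough counts to be tested.

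The cells were OCI-AML3, a human line established from acute myeloid leukaemia. There were 2 libraries with the genotype label Plex CEBPB and 2 with the genotype label Plex Control; neither the word Plex nor the means by which CEBPB was introduced is explained in the labels. The CEBPB product, C/EBPβ, is a leucine zipper transcription factor active in macrophages and in inflammation, and the title of the series places it in a loop with IL-1β and TNFα. Whether libraries of 1 group came from separate cultures is not stated, so p-values measure the spread between these libraries, which may be technical.

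The deposited estimated counts summed to 21950575 and 18151225 in the CEBPB libraries and to 19882347 and 21598592 in the control libraries. CEBPB itself stood at 536 and 339 TPM (transcripts per 1e6 transcripts, a level comparable between genes) in the CEBPB libraries, against 4.72 and 4.47 TPM in the controls. All 8 markers of myeloid cells or of this line were above 0 in every library, and they moved in different directions. LYZ read 7686 and 7921 TPM in the CEBPB libraries, against 1413 and 1308 TPM in the controls, and ITGAM and CD14 were higher too, at 4.54 to 5.36 TPM against 1.53 TPM or less. SPI1 read 103 and 120 TPM, against 218 and 223 TPM, and CSF3R, NPM1 and MPO (1.79 TPM or less) were also lower in both CEBPB libraries, while CD33 lay between 46.5 and 53.0 TPM in all 4. Of 12 markers of other cell types 4 were at 0 in all libraries, and the 12 together came to 47.1 and 52.7 TPM in the CEBPB libraries against 114 and 107 TPM in the controls, most of it PECAM1 and NKG7; the part of these genes in the results was not tested. In bulk RNA, fewer cells with a transcript and less transcript per cell cannot be told apart.

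More of the 42 listed genes were higher than lower in the CEBPB libraries. By edgeR's quasi-likelihood F test, adjusted after Benjamini-Hochberg over all 13698 identifiers tested, 18 of the 42 genes rose (42.9%) and 6 fell (14.3%). Over all identifiers tested 23.7% were called higher and 24.7% lower. A call with at least a 2-fold change was made for 6 of the 42 higher (8.51% of all identifiers) and for 1 lower (7.98%). The median log2 fold change was 0.16 over the 42 genes, against 0.001 over all identifiers. Together the 42 genes held 2351 and 2229 TPM in the CEBPB libraries, against 1201 and 1208 TPM in the controls. SOD2 and TNFAIP6 accounted for 949.9 and 849.6 TPM of those sums in the CEBPB libraries and for 137 and 114 TPM in the controls; the other 40 genes came to 1401 and 1379 TPM, against 1064 and 1094 TPM.

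Fold changes are given as log2 of CEBPB over Control after scaling by the trimmed mean of M values. Scaled by library totals alone, the median of all identifiers lay 0.18 higher, 4424 identifiers (32.3%) were called higher and 2360 (17.2%) lower instead of 3251 and 3390, and 22 of the 42 genes rose and 6 fell. TPM ratios run on that second scale, so that a gene can stand above both controls in TPM and have a log2 fold change near 0. In TPM, 29 of the 42 genes were higher in both CEBPB libraries than in both controls (48.7% of all identifiers tested) and 7 were lower in both (28.6%). Without control replicate 2 the test called 11 of the 42 genes higher (16.1% of all identifiers) and 6 lower (17.1%).

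**Figure D1:**
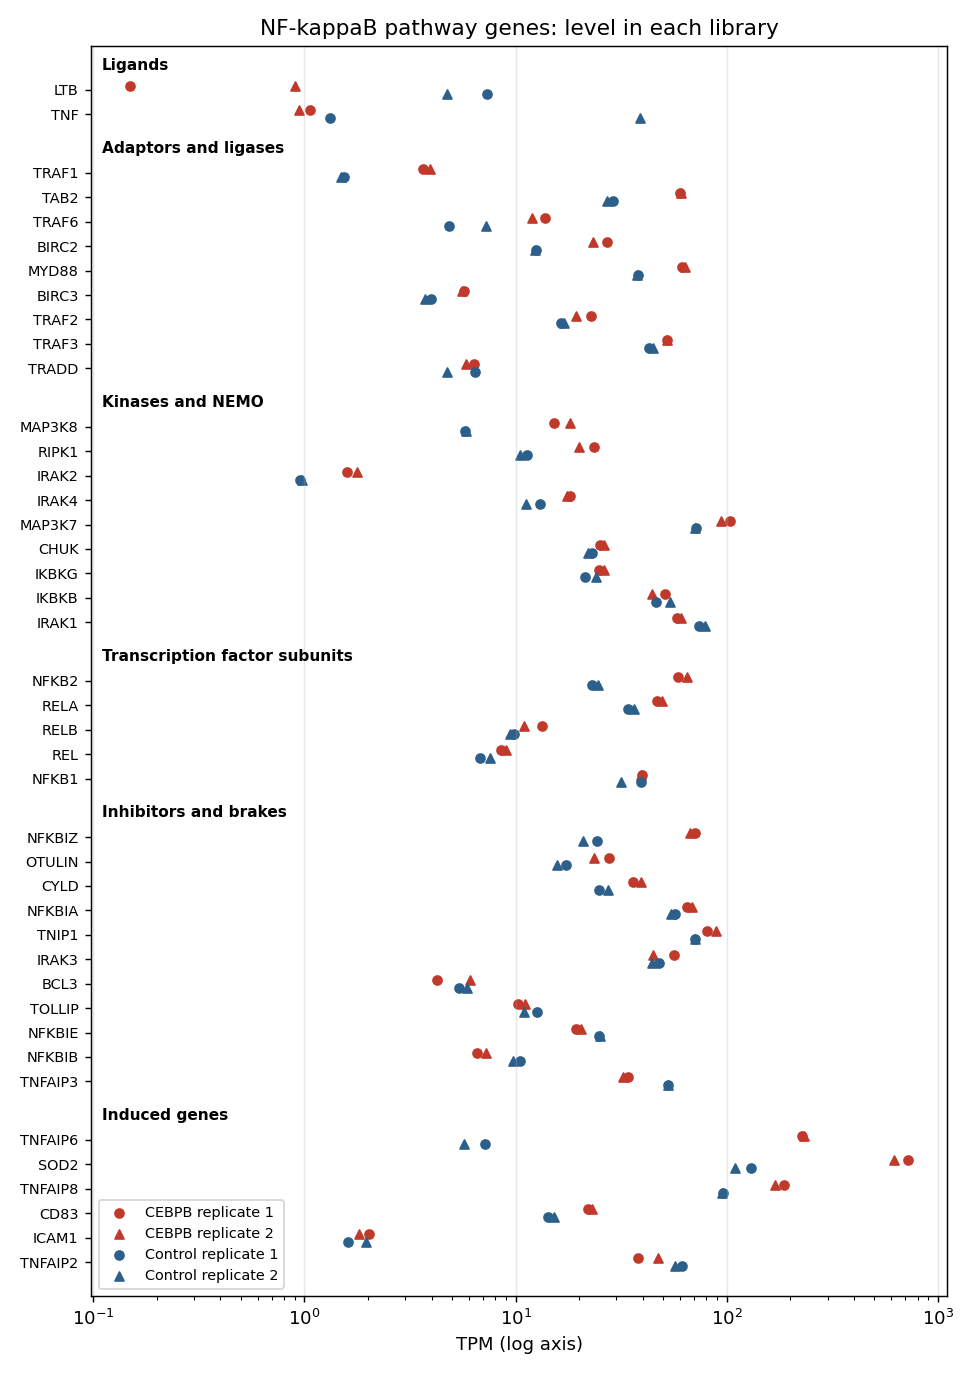
TPM of the 42 genes (log axis) in each of the 2 CEBPB libraries (red) and 2 control libraries (blue), grouped by role and ordered by fold change within a role. TNFAIP6 at 226 and 231 TPM in the CEBPB libraries lies farthest to the right of its controls at 7.18 and 5.67 TPM, and TNF shows 1 control library far from the other.

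**Figure D2:**
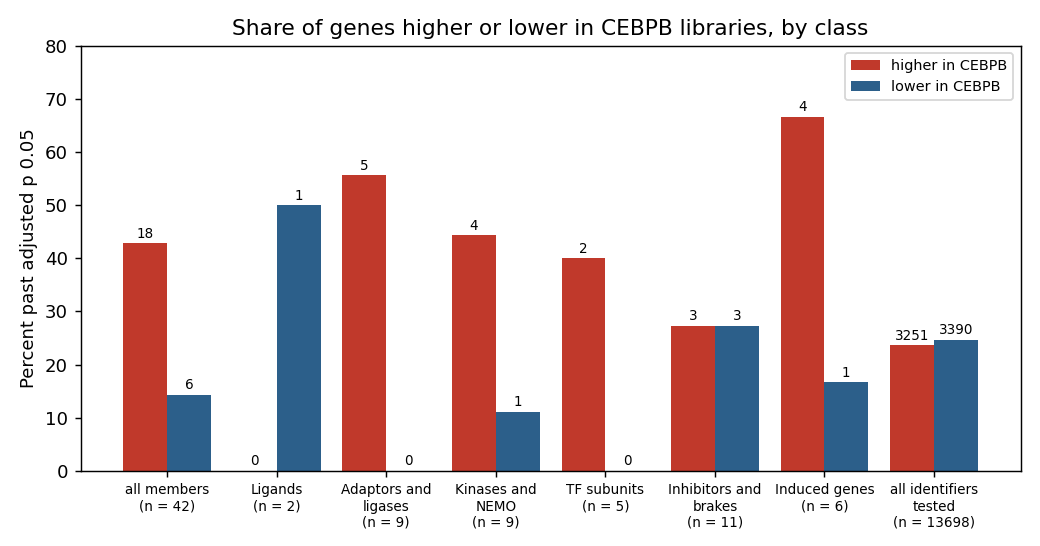
Percent of genes called higher (red) and lower (blue) in the CEBPB libraries, for all 42 genes, for each role and for all identifiers tested; the number above a bar is the count of genes. Adaptors and induced genes have 5 and 4 members higher, whereas the inhibitors divide into 3 higher and 3 lower. Over all identifiers tested 23.7% are higher and 24.7% lower.

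Promoters were searched for letters that NF-κB and C/EBP proteins are known to bind. RefSeq promoters on GRCh38.p14, from 250 bases before to 50 bases after the start of transcription, were at hand for 38 of the 42 genes. The κB core, taken as GGGA and CC with any 4 bases between them on either strand, was present in 19 of these 38 promoters (50.0%), in 25.6% of 35116 promoters of all genes and in 30.2% of those of the genes tested. The C/EBP letters TTGCNNAA, read on both strands, were present in 2 of the 38 (IRAK4 and TNFAIP2), against 10.5% of all promoters and 7.63% of those of the genes tested. Of the 19 genes with the κB core, 7 rose, 4 fell and 8 did not pass, and of the 19 without it 11 rose, 1 fell and 7 did not pass. The shares over all identifiers tested were 23.7% higher and 24.7% lower. Whether calls go with the core was not tested, and a match of letters is not evidence of binding.

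The promoters of 5 genes are shown because these genes moved in different ways, as described further on: NFKBIZ and MAP3K8 rose, TNFAIP3 fell, the log2 fold change of NFKBIA was near 0, and TNFAIP6 had the largest rise. They are written 5′ to 3′ on the strand of the gene, with the κB core in capitals; the NFKBIZ core begins 223 bases before the start, that of MAP3K8 29 bases, that of NFKBIA 81 bases and that of TNFAIP3 67 bases. TNFAIP6 has neither set of letters in this window.
NFKBIZ (chr3:101827740-101828039, plus strand): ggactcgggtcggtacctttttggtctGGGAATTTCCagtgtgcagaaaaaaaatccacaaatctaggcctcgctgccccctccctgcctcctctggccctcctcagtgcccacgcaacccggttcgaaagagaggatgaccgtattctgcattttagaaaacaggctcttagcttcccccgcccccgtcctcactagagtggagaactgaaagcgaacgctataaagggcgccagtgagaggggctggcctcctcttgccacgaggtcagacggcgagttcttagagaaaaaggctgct
MAP3K8 (chr10:30433771-30434070, plus strand): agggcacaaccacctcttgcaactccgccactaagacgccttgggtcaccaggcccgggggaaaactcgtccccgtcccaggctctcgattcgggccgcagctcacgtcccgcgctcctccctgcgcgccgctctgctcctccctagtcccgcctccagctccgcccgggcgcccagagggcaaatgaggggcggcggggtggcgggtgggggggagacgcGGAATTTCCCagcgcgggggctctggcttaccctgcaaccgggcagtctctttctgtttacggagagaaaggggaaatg
NFKBIA (chr14:35404700-35404999, minus strand): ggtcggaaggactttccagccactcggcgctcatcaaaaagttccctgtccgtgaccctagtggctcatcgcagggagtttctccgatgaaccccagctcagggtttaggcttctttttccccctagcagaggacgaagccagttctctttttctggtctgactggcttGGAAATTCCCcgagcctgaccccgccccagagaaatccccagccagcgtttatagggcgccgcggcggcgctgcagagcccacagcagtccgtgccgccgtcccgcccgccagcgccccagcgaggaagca
TNFAIP3 (chr6:137867009-137867308, plus strand): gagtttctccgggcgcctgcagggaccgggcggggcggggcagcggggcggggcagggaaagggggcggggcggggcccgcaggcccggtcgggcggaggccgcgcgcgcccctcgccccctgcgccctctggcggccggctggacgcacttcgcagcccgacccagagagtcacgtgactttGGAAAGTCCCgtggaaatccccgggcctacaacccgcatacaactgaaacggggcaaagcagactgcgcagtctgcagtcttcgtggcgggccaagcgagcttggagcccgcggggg
TNFAIP6 (chr2:151357342-151357641, plus strand): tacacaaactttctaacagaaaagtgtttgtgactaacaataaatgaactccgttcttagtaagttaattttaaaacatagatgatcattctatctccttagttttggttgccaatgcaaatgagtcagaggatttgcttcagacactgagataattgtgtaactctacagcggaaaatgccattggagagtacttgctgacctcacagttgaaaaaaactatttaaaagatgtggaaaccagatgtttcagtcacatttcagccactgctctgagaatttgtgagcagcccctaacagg

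Several of these cores had the same 10 letters once read on the strand that begins with GGGA. GGGAATTTCC was the core of NFKBIZ and NFKBIA and also of NFKB1, 49 bases before its start, and of REL, 46 bases before its start. Of these 4 genes NFKBIZ rose and the other 3 did not pass. REL held a second, overlapping core, GGGAAATTCC, the letters also found in the promoter of MAP3K8, which rose. GGGACTTTCC was the core of TNFAIP3 and the first of 3 matches in the LTB promoter, 86 bases before its start, and both genes fell. NFKB2, which rose, carried GGGACCGACC at 24 bases before its start, letters found in no other of the 38 promoters of the listed genes. Promoters of other genes were not compared for these letters.

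The 2 ligands on the list were the only role with no gene called higher. LTB, lymphotoxin β, a membrane ligand that signals through the LTβ receptor (ENSG00000227507.3, chromosome 6, 31580525 to 31582522, minus strand, GENCODE v29 on GRCh38), read 0.150 and 0.904 TPM in the CEBPB libraries and 7.30 and 4.76 TPM in the controls. Both CEBPB libraries lay below both controls, and LTB fell by 3.78 on the log2 scale (SE 0.69, adjusted p = 0.00783, edgeR). Reads recovered from TPM and effective length numbered 2.0 and 9.66 in the CEBPB libraries, against 112 and 76.6 in the controls, so the size of the fall rests on few reads. The log2 fold change was -2.90 without CEBPB replicate 1 and -5.61 without CEBPB replicate 2, and LTB passed in both cases (adjusted p = 0.0118 and 0.00448, edgeR).

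TNF, the inflammatory ligand named in the series title (ENSG00000232810.5, plus strand of chromosome 6, 31575567 to 31578336), had 1.06 and 0.945 TPM in the CEBPB libraries and 1.31 and 39.0 TPM in the controls. Control replicate 2 alone was high, and the other 3 libraries lay close together. The log2 fold change of -4.52 (SE 1.56, 95% interval -8.44 to -0.59) did not pass (adjusted p = 0.0613, edgeR). Over the alternatives the adjusted p ran from 1.94e-04 without control replicate 1 to 0.536 without control replicate 2. The effective length of TNF was 1790 bases in control replicate 2 and 694 to 868 bases in the other 3 libraries. Of genes near TNF, NFKBIL1 and LTA stood at 0.1 TPM or less in every library and PRRC2A at 1.57 to 2.49 TPM. LST1 read 15.1 and 28.1 TPM in the CEBPB libraries, against 66.2 and 56.8 TPM in the controls, and AIF1 read 9.01 and 7.78 TPM, against 29.9 and 33.0 TPM; both fell (log2 fold changes -1.69 and -2.08, adjusted p = 0.0072 and 1.96e-04, edgeR). In all, 5394 identifiers carry no symbol; whether any of them holds reads of TNF or LTB was not tested.

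Of the 9 adaptors and ubiquitin ligases 5 rose (55.6%) and 0 fell by edgeR, against 23.7% higher and 24.7% lower over all identifiers tested. The same 5 had an unadjusted p under 0.05, a threshold that 7647 of all 13698 identifiers passed. TRAF1, a TNF receptor adaptor that is itself an NF-κB target, read 3.63 and 3.93 TPM in the CEBPB libraries and 1.54 and 1.5 TPM in the controls. The groups did not overlap (log2 fold change 1.13, SE 0.24, adjusted p = 0.0130, edgeR). TAB2, which ties ubiquitin chains to the kinase TAK1, read 60.3 and 60.7 TPM in the CEBPB libraries, against 28.8 and 27.0 TPM in the controls, a rise of 0.94 (SE 0.08, adjusted p = 6.46e-04, edgeR). TRAF6, the ubiquitin ligase of the IL-1 and Toll-like receptor branch, read 13.8 and 11.9 TPM, against 4.85 and 7.26 TPM in the controls. It rose by 0.91 (SE 0.21, adjusted p = 0.0181, edgeR), with the wider spread in the controls.

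BIRC2, the ubiquitin ligase cIAP1 of the TNF receptor complex, stood at 27.0 and 23.2 TPM in the CEBPB libraries and at 12.5 and 12.4 TPM in the controls, a rise of 0.83 (SE 0.10, adjusted p = 0.00170, edgeR). Its relative and neighbour on chromosome 11, BIRC3 (cIAP2), stood at 5.70 and 5.55 TPM, against 3.97 and 3.74 TPM, and did not pass (0.36, 95% interval -0.05 to 0.78, adjusted p = 0.127, edgeR). BIRC3 did pass with library totals (0.54, adjusted p = 0.0455, edgeR), on recovered reads (0.43, adjusted p = 0.0279, edgeR) and by limma (adjusted p = 0.0389 and 0.0397). With a length offset it did not (adjusted p = 0.138, edgeR). MYD88, the adaptor shared by IL-1 receptors and most Toll-like receptors, read 61.4 and 63.6 TPM, against 38.0 and 37.7 TPM in the controls, and rose by 0.54 (SE 0.08, adjusted p = 0.00320, edgeR). The IL-1 branch (MYD88, TRAF6) and the TNF branch (TRAF1, BIRC2) thus each had adaptors that rose.

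The remaining adaptors did not pass. TRAF3, a brake on the alternative NF-κB pathway, was at 52.2 and 51.9 TPM in the CEBPB libraries and 42.8 and 44.9 TPM in the controls (log2 fold change 0.07, 95% interval -0.11 to 0.25, adjusted p = 0.451, edgeR). Its partner TRAF2 was at 22.7 and 19.4 TPM, against 16.3 and 17.0 TPM (0.16, adjusted p = 0.237, edgeR). For both, each CEBPB library was above each control in TPM. TRAF3 passed when scaled by library totals (0.25, adjusted p = 0.0368, edgeR) and on recovered reads (0.43, adjusted p = 8.58e-04, edgeR). On recovered reads with a length offset TRAF3 did not pass (0.018, adjusted p = 0.858, edgeR). TRAF2 passed under none of the 16 alternatives. TRADD, the first adaptor of TNF receptor 1, overlapped between groups, with 6.36 and 5.83 TPM in the CEBPB libraries and 6.44 and 4.72 TPM in the controls.

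Of the 9 kinase genes, NEMO included, 4 rose (44.4%), 1 fell (11.1%) and 4 did not pass. Over all identifiers tested 23.7% were called higher and 24.7% lower. The 3 subunits of the IκB kinase complex were among the genes that did not pass. MAP3K8 (TPL2), the kinase that NF-κB1 p105 holds and that feeds the MEK-ERK pathway, had the largest rise of this class. It read 15.2 and 18.1 TPM in the CEBPB libraries, against 5.78 and 5.85 TPM in the controls (1.34, SE 0.15, adjusted p = 0.00176, edgeR). RIPK1, the scaffold kinase of the TNF receptor complex, read 23.5 and 19.9 TPM, against 11.4 and 10.4 TPM, and rose by 0.81 (SE 0.11, adjusted p = 0.00279, edgeR). In both genes every CEBPB library lay above every control.

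The kinases of the IL-1 and Toll-like receptor complex went in different directions. IRAK1, which carries the signal from the receptor complex to TRAF6, fell to 58.3 and 60.4 TPM in the CEBPB libraries, against 73.4 and 78.6 TPM in the controls (log2 fold change -0.54, SE 0.08, adjusted p = 0.00393, edgeR). IRAK4, the kinase that activates IRAK1, read 18.2 and 17.6 TPM, against 13.0 and 11.2 TPM, and rose by 0.38 (SE 0.11, adjusted p = 0.0386, edgeR). The groups of each gene did not overlap, and they lay on opposite sides. IRAK2, at 1.59 and 1.77 TPM against 0.955 and 0.979 TPM in the controls, did not pass (0.62, 95% interval -0.23 to 1.47, adjusted p = 0.189, edgeR). Of the alternatives it passed on recovered reads (0.595, adjusted p = 0.0359, edgeR), but not on these with a length offset (0.568, adjusted p = 0.0881, edgeR). Below them MAP3K7 (TAK1), which activates the IκB kinases, read 103 and 94.0 TPM, against 71.6 and 71.0 TPM, and rose by 0.29 (SE 0.06, adjusted p = 0.0144, edgeR).

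The IκB kinase complex has the catalytic subunits IKKα (CHUK) and IKKβ (IKBKB) and the regulatory subunit NEMO (IKBKG). CHUK read 25.2 and 26.3 TPM in the CEBPB libraries and 22.9 and 22.0 TPM in the controls, a log2 fold change of 0.016 (95% interval -0.21 to 0.24). IKBKB read 50.8 and 44.5 TPM, against 46.1 and 54.0 TPM, with overlapping groups and a log2 fold change of -0.25 (adjusted p = 0.0876, edgeR); it passed on recovered reads with a length offset (-0.30, adjusted p = 0.0354, edgeR). IKBKG read 24.9 and 26.3 TPM, against 21.2 and 23.9 TPM, a log2 fold change of 0.0048 (95% interval -0.26 to 0.27). None of the 3 passed, and the intervals of CHUK and IKBKG include changes of up to about 0.27 in either direction. IKBKG has a near-identical pseudogene, IKBKGP1, which held 0 TPM in both CEBPB libraries and 2.58 and 0.776 TPM in the controls, so its values are uncertain.

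Of the 5 subunit genes 2 rose, 0 fell and 3 did not pass, against 23.7% higher and 24.7% lower over all identifiers tested. NFKB2 had the largest change. It encodes p100, the precursor of the p52 subunit of the alternative pathway and, uncut, an IκB-like inhibitor (ENSG00000077150.21, chromosome 10, 102394110 to 102402529, plus strand). NFKB2 read 58.9 and 64.7 TPM in the CEBPB libraries, against 22.9 and 24.5 TPM in the controls. Both CEBPB libraries lay far above both controls, and NFKB2 rose by 1.21 (SE 0.10, adjusted p = 6.52e-04, edgeR), or 2.31-fold. RELA, the p65 subunit, read 46.7 and 49.3 TPM, against 34.0 and 36.4 TPM, and only just passed (0.27, SE 0.09, adjusted p = 0.0492, edgeR). The call of RELA was lost under 7 of the 16 alternatives.

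The other 3 subunits did not pass. RELB, the usual partner of p52, read 13.3 and 10.9 TPM in the CEBPB libraries and 9.81 and 9.36 TPM in the controls (log2 fold change 0.16, 95% interval -0.16 to 0.48). REL read 8.48 and 9.04 TPM, against 6.75 and 7.58 TPM (0.11, 95% interval -0.26 to 0.48), and an annotated RNA on the same strand shares 5702 of its exon bases. NFKB1, which encodes p105 and the p50 subunit, read 39.5 and 39.1 TPM, against 39.0 and 31.6 TPM (-0.023, 95% interval -0.32 to 0.27). In controls NFKB1 stood above NFKB2 in TPM, and in the CEBPB libraries below it. All 5 subunits were higher in TPM in both CEBPB libraries than in both controls, as were 48.7% of all identifiers tested. TPM ratios run above the fitted fold changes, and 3 of the 5 did not pass. For NFKB1 the margin over control replicate 1 was under 1 TPM.

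**Figure D3:**
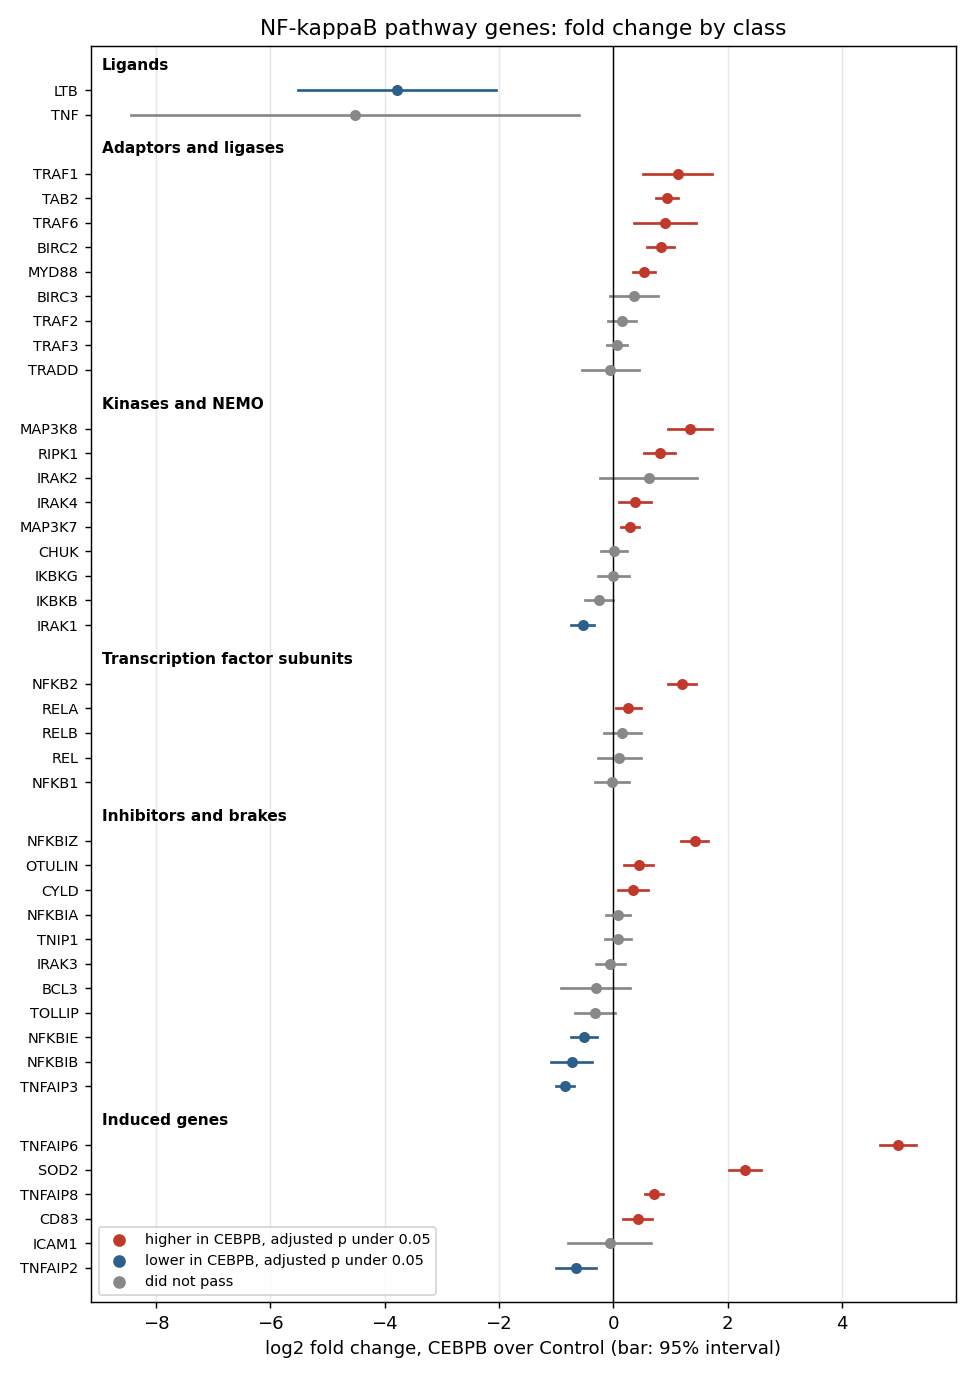
Log2 fold change of each of the 42 genes, CEBPB over Control, with its 95% interval, by role; red genes were called higher and blue genes lower at an adjusted p under 0.05, and grey genes did not pass. TNFAIP6 (4.98) and SOD2 (2.31) extend to the right, LTB (-3.78) to the left, and the interval of TNF runs from -8.44 to -0.59.

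Of the 11 inhibitors and brakes 3 rose (27.3%), 3 fell (27.3%) and 5 did not pass, shares near the 23.7% and 24.7% over all identifiers tested. The median log2 fold change was -0.047. NFKBIZ, which encodes IκBζ, a nuclear IκB that acts as a co-activator of some inflammatory genes, read 70.3 and 66.9 TPM in the CEBPB libraries, against 24.3 and 20.9 TPM in the controls. The gap was many times the spread within either group, and NFKBIZ rose by 1.42 (SE 0.09, adjusted p = 3.43e-04, edgeR), or 2.68-fold.

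Among the genes of the cytoplasmic IκBs none was called higher. NFKBIA, which encodes IκBα, the main cytoplasmic inhibitor and a standard NF-κB target, read 65.0 and 68.7 TPM in the CEBPB libraries and 57.0 and 54.4 TPM in the controls. The log2 fold change was 0.08 (95% interval -0.12 to 0.29, adjusted p = 0.440, edgeR); with library totals it was 0.26 (adjusted p = 0.0341, edgeR). NFKBIB (IκBβ) read 6.58 and 7.20 TPM, against 10.5 and 9.67 TPM in the controls, and fell by 0.73 (SE 0.14, adjusted p = 0.0103, edgeR). NFKBIE (IκBε) read 19.4 and 20.3 TPM, against 24.9 and 25.0 TPM, and fell by 0.51 (SE 0.09, adjusted p = 0.00680, edgeR). For both, the CEBPB libraries lay below the controls. NFKBIB and TOLLIP each share identical values with an identifier that carries no symbol, so that their levels are uncertain, but not the ratios between libraries. BCL3, another nuclear IκB, had overlapping groups at 4.24 and 6.07 TPM, against 5.40 and 5.86 TPM in the controls.

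The enzymes that remove ubiquitin chains also divided. TNFAIP3, which encodes A20, an NF-κB-induced brake on TNF and Toll-like receptor signals (ENSG00000118503.18, plus strand of chromosome 6, 137867188 to 137883312), read 33.9 and 32.3 TPM in the CEBPB libraries, against 52.5 and 52.5 TPM in the controls. It fell by 0.84 (SE 0.06, adjusted p = 5.39e-04, edgeR), and the spread within each group was small beside the difference. OTULIN, which cuts linear ubiquitin chains, read 27.6 and 23.6 TPM, against 17.4 and 15.8 TPM, and rose by 0.45 (SE 0.10, adjusted p = 0.0159, edgeR). CYLD, a deubiquitinase that also acts on linear chains, read 35.8 and 39.1 TPM, against 24.7 and 27.4 TPM, and rose by 0.34 (SE 0.10, adjusted p = 0.0434, edgeR). A20 thus moved against both of the other enzymes.

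TNIP1 (ABIN1), the adaptor of A20, stood at 80.4 and 88.9 TPM in the CEBPB libraries and 70.9 and 70.4 TPM in the controls and did not pass (log2 fold change 0.08, 95% interval -0.15 to 0.32). With library totals it passed (0.26, adjusted p = 0.0417, edgeR). TOLLIP, a brake on IRAK1, overlapped at 10.3 and 11.1 TPM, against 12.7 and 10.9 TPM (-0.32, 95% interval -0.67 to 0.02). IRAK3 (IRAK-M), the pseudokinase that restrains this complex in myeloid cells, overlapped at 56.0 and 44.6 TPM, against 47.6 and 44.2 TPM (-0.047, 95% interval -0.31 to 0.21).

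Of the 6 induced genes 4 rose (66.7%), 1 fell (16.7%) and 1 did not pass, against 23.7% higher and 24.7% lower over all identifiers tested. TNFAIP6 and SOD2 had the largest rises of the 42 genes. TNFAIP6, which encodes TSG-6, a secreted hyaluronan-binding protein (ENSG00000123610.5, plus strand of chromosome 2, 151357592 to 151380048), read 226 and 231 TPM in the CEBPB libraries, against 7.18 and 5.67 TPM in the controls. The groups were far apart, and TNFAIP6 rose by 4.98 (SE 0.13, adjusted p = 6.08e-05, edgeR), or 31.6-fold. SOD2, the mitochondrial manganese superoxide dismutase (ENSG00000291237.1; RefSeq on GRCh38.p14 places it on chromosome 6, 159669069 to 159762281), read 724 and 618 TPM, against 130 and 109 TPM in the controls. It rose by 2.31 (SE 0.11, adjusted p = 1.90e-04, edgeR), or 4.96-fold, and was the most abundant gene of the list in all 4 libraries.

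TNFAIP8, a TNF-induced regulator of survival, read 187 and 169 TPM in the CEBPB libraries, against 96.3 and 95 TPM in the controls, and rose by 0.72 (SE 0.06, adjusted p = 7.88e-04, edgeR). CD83, a surface marker of activated antigen-presenting cells, read 21.9 and 23.0 TPM, against 14.3 and 15.2 TPM, and rose by 0.43 (SE 0.10, adjusted p = 0.0176, edgeR). Neither gene's groups overlapped. TNFAIP2, first described as a TNF-induced gene of endothelial cells, went the other way with 38.0 and 47.4 TPM, against 61.6 and 57.0 TPM in the controls (-0.65, SE 0.14, adjusted p = 0.0141, edgeR). ICAM1, an adhesion ligand of leukocyte integrins and a standard NF-κB target, was low in all libraries, with 2.03 and 1.81 TPM in the CEBPB libraries and 1.61 and 1.95 TPM in the controls, and its groups overlapped (-0.058, 95% interval -0.78 to 0.67).

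**Figure D4:**
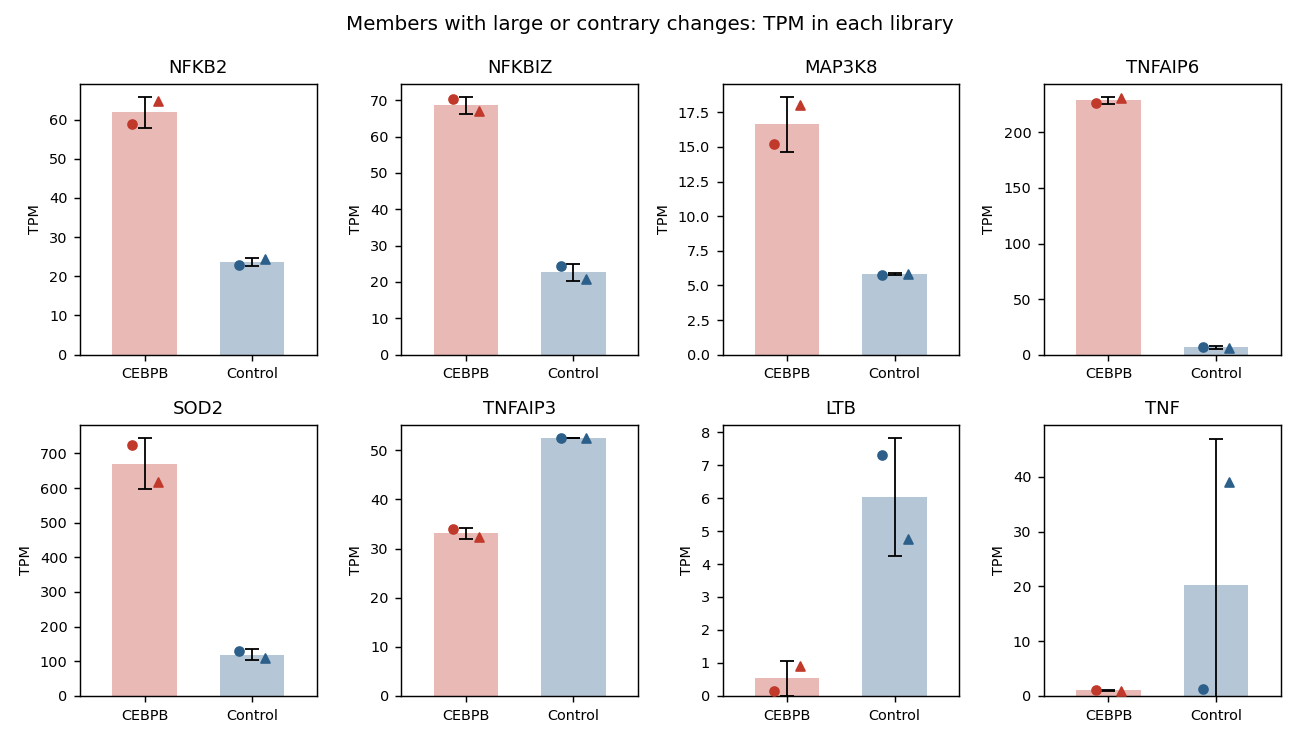
TPM of 8 genes in the CEBPB (red, left) and Control (blue, right) libraries; bars are means, error bars the SD of 2 libraries, and circles and triangles replicates 1 and 2. NFKB2, NFKBIZ, MAP3K8, TNFAIP6 and SOD2 are higher and TNFAIP3 and LTB lower in both CEBPB libraries, and the TNF bar of the controls rests on 1 library at 39.0 TPM.

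Calls differed in how far they depended on single libraries and on the method. Of the 18 genes that rose, 10 kept their call under all 16 alternatives: BIRC2, MYD88, TAB2, RIPK1, MAP3K8, NFKB2, NFKBIZ, TNFAIP6, TNFAIP8 and SOD2. Of the 6 that fell, LTB, IRAK1, NFKBIE and TNFAIP3 did so, and NFKBIB and TNFAIP2 lost it only without control replicate 1 (adjusted p = 0.0535 and 0.0537, edgeR). The other 8 lost their call under 2 or more alternatives. RELA lost it under 7 (adjusted p from 0.0528 to 0.241), IRAK4 under 6 (0.0516 to 0.183), CYLD under 5 (0.0514 to 0.2), TRAF1 (0.0520 to 0.0699) and CD83 (0.0510 to 0.0872) under 4, and TRAF6 (0.0507 to 0.0775), MAP3K7 (0.101 to 0.116) and OTULIN (0.0699 to 0.0808) under 2, by edgeR or DESeq2. Each of these 8 lost it without at least 1 single library.

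The effective length of a gene is the mean length of its transcripts, weighted by their abundance and shortened for fragment size, so it moves with the mix of isoforms. It was compared without a test. Over all identifiers tested 5.75% were longer and 2.36% shorter in both CEBPB libraries than in both controls with at least a 1.2-fold ratio of means, and among the 42 genes 2 were longer and 2 shorter. TRAF3 measured 2997 and 2679 bases in the CEBPB libraries, against 2120 and 2152 bases in the controls. SOD2 measured 1576 and 1552 bases, against 1179 and 1352 bases, and NFKBIE 1893 and 1713 bases, against 2173 and 2265 bases. TNF was the second shorter gene, by the 1 control library given above. The median ratio was 1.02 over all identifiers and 1.02 over the 42 genes. Counts of 2 genes in each direction are too small to set against the shares over all identifiers. Since the deposited counts carry no length, the log2 fold change of TRAF3 was 0.07 on them and 0.43 on recovered reads. On recovered reads with a length offset it was 0.018.

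**Figure D5:**
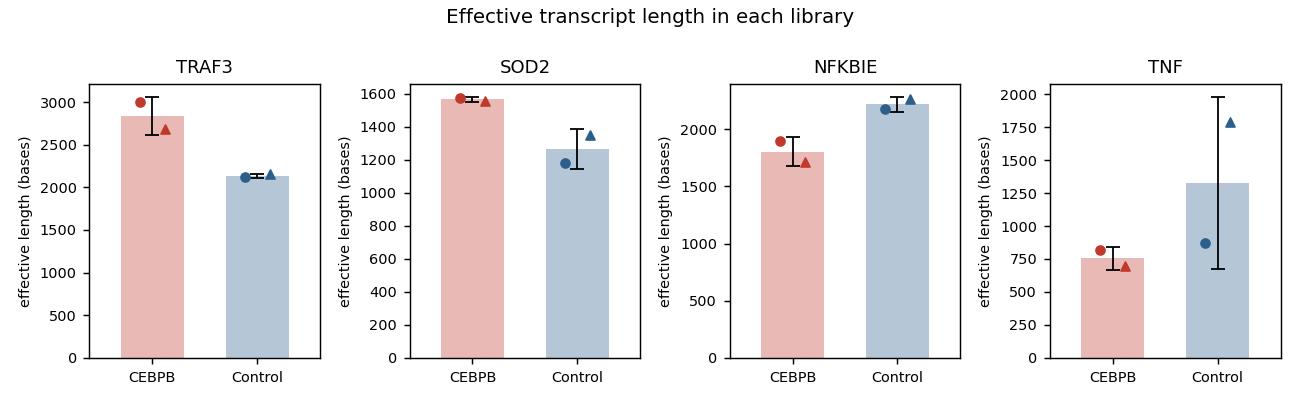
Effective transcript length in bases of the 4 genes past the 1.2-fold line, in the CEBPB (red, left) and Control (blue, right) libraries; bars are means, error bars the SD of 2 libraries, circles and triangles replicates 1 and 2. TRAF3 and SOD2 are longer in both CEBPB libraries, NFKBIE is shorter in both, and the TNF difference lies in 1 control at 1790 bases.

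Beyond the 42 genes, 4 lists of other pathway genes were counted in the same fit. Over all identifiers tested 23.7% were called higher and 24.7% lower. The lists were chosen with earlier results of these data known, so their shares are descriptive. Of 26 receptors upstream of NF-κB 16 were tested, of which 6 rose (37.5%) and 4 fell (25.0%). IL1RAP, the shared signalling chain of the IL-1 receptor family, read 94.2 and 84.1 TPM in the CEBPB libraries, against 13.1 and 13.2 TPM in the controls (2.58), TLR8 read 27.7 and 33.9 TPM, against 5.53 and 4.70 TPM (2.42), and CD14 (2.08) and TLR1 (0.71) rose as well. TNFRSF1B, the second TNF receptor, fell to 33.8 and 50.3 TPM, against 87.9 and 88.9 TPM (-1.25), and LTBR, the receptor of LTB, to 47.2 and 48.7 TPM, against 56.2 and 58.8 TPM (-0.44). TLR2 (-1.31) and TLR9 (-3.81) fell too, and TLR9 stood at 1.62 TPM or less in every library.

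Of 32 other signalling parts 30 were tested, of which 11 rose (36.7%) and 7 fell (23.3%). Over all identifiers tested the shares were 23.7% and 24.7%. The ubiquitin receptor p62 (SQSTM1) read 284 and 291 TPM in the CEBPB libraries, against 87.9 and 86.9 TPM in the controls (1.54), and the kinase TBK1 read 75.2 and 66.1 TPM, against 40.2 and 41.4 TPM (0.61). The ubiquitin ligases PELI1 (0.95) and PELI2 (0.94) of the IRAK branch rose beside them. CARD9, the adaptor of C-type lectin receptors, fell to 1.17 and 1.24 TPM, against 12.1 and 11.3 TPM (-3.43), and IKBKE (-1.04), TRAF4 (-0.95) and RBCK1, the HOIL-1 subunit of the linear ubiquitin ligase (-0.60), fell as well.

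Of 23 other brakes 21 were tested, of which 9 rose (42.9%) and 1 fell (4.76%), with a median log2 fold change of 0.35. Over all identifiers tested the shares were 23.7% and 24.7% and the median was 0.001. Those with the smallest p were AZI2 (1.52) and TANK (1.12), adaptors of TBK1, N4BP1, a ubiquitin-binding inhibitor (1.57), and the RNase ZC3H12A (1.26). ZC3H12A read 29 and 31.4 TPM in the CEBPB libraries against 11.9 and 10.5 TPM in the controls. AZI2 and TANK were counted as listed, and whether they act as brakes in these cells was not tested. The gene that fell was ZFP36, whose product directs decay of TNF mRNA, at 21.8 and 25.2 TPM in the CEBPB libraries against 44.0 and 43.2 TPM in the controls (-1.07). TNFAIP3 and ZFP36 were therefore lower in the same libraries in which ZC3H12A, N4BP1 and TANK were higher.

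Of 50 other NF-κB target genes 37 were tested, of which 22 rose (59.5%) and 9 fell (24.3%), with a median log2 fold change of 1.36. Over all identifiers tested the shares were 23.7% and 24.7% and the median was 0.001. The share that fell was thus near that of all identifiers. SERPINB2, an inhibitor of plasminogen activators, read 295 and 241 TPM in the CEBPB libraries, against 0.0626 and 0.110 TPM in the controls (11.56), and PTGS2, cyclooxygenase 2, read 236 and 207 TPM, against 1.07 and 0.743 TPM (7.77). CXCL1 and BCL2A1 rose by 4.66 and 4.65. EBI3, a cytokine subunit, fell to 0.411 and 0.742 TPM, against 12.1 and 9.24 TPM (-4.43), and CCL5 (-2.77), TNFSF10, the death ligand TRAIL (-2.19), and the hyaluronan receptor CD44 (-1.70) fell as well. Genes known as NF-κB targets hence lay at both ends of the range, as TNFAIP6 and LTB did within the 42. The lists were tested at the adjusted p of the whole table, and in these 4 paragraphs the values in brackets are log2 fold changes.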

How the data were processed

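Poly(A) RNA of 4 libraries was sequenced. Per the submitters' processing notes, Trimmomatic 0.39, kallisto 0.46.2 and GRCh38 were used; the annotation release, strand setting and step from transcripts to genes are not given in the sources used here. The authors deposited expected (estimated) counts, TPM and effective lengths per gene. In each library the deposited expected counts equal the deposited TPM times 1 constant, so they carry no transcript length. Symbols matched 35690 of 41084 identifiers.

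Expected counts were rounded, filtered with filterByExpr (13698 identifiers left), then normalised by the trimmed mean of M values method (factors 0.939 to 1.09). The test was the quasi-likelihood F test of edgeR 4.0.16 under R 4.3.3 (Benjamini-Hochberg adjusted p under 0.05, biological coefficient of variation 11.3%). The SE is the size of the log2 fold change divided by the square root of F. Replicates were not copies of each other: chi-square divided by its degrees of freedom came to 8.44 for the CEBPB pair and 4.50 for the control pair. Reads were also recovered as the product of TPM and effective length, brought to each library's total; 60.1% of values between 0.2 and 500 lay within 0.01 of a whole number. Results were recomputed under 16 other settings, 2 of them chosen after seeing the data (DESeq2 1.42.0 and limma 3.58.1 among the tools). Figures used matplotlib 3.10.9 in Python 3.11.15.

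The members, lists and roles were chosen with earlier results of these data known. All 42 genes were named, and of each other list the 4 with the smallest p in each direction. The promoters shown were chosen after values were seen. Arithmetic means and SDs have n = 2 libraries.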

Additional observations from a re-analysis of the deposited data

How the results depend on the processing

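With DESeq2 size factors, a filter of 1 CPM or identifiers summed by symbol, 18 members rose and 6 fell, as in the results above. With 1 library left out, the members that rose numbered 11 to 15 and those that fell 5 to 6, and the lone library of a group was assumed to vary like the other group. DESeq2 called 13 higher and 7 lower, recovered reads 21 and 7, these with a length offset 15 and 8, and limma on log2 TPM 22 and 6. The whole table moved as well. Over all identifiers DESeq2 called 2628 higher and 2913 lower, recovered reads 4179 and 4209, and these with a length offset 3174 and 3836. Limma called 4498 and 2448 on log2(TPM + 1), and 4461 and 2408 on log2(TPM + 0.1). On named identifiers without an identical partner 17 rose and 5 fell, and NFKBIB and TOLLIP gave no value there. Labels share replicate numbers, but deviations of same-numbered libraries did not correlate (r = -0.0131 over 13698 identifiers), and with a replicate block 18 members rose and 7 fell; TNF was the added one (-3.69, adjusted p = 0.0323, edgeR). TNF also passed with DESeq2 (adjusted p = 0.0282), recovered reads (0.0291, edgeR) and these with a length offset (0.0366, edgeR).

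Among the members a change of sign was seen in 7 genes, which passed neither there nor in the results above. With library totals, and with limma on log2(TPM + 1) and log2(TPM + 0.1), the values were 0.134, 0.119 and 0.139 for TRADD, 0.156, 0.158 and 0.162 for NFKB1, 0.136, 0.123 and 0.125 for IRAK3, and 0.123, 0.073 and 0.108 for ICAM1. With recovered reads they were -0.012 for IKBKG, 0.049 for IRAK3 and 0.035 for ICAM1, with a length offset -0.033 for CHUK and -0.046 for IKBKG, and on named identifiers -0.007 for IKBKG. With 1 library left out they ran from -0.258 to 0.190 for TRADD, -0.049 to 0.093 for CHUK, -0.08 to 0.093 for IKBKG, -0.17 to 0.134 for NFKB1, -0.025 to 0.199 for TNIP1, -0.173 to 0.075 for IRAK3 and -0.188 to 0.082 for ICAM1. With library totals the median of all identifiers also lay 0.18 higher, and the cause of these shifts was not tested. After TNF the largest standard errors were those of LTB (0.69), IRAK2 (0.34) and ICAM1 (0.29), and the part of sequencing depth in them was not tested.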
